A study of Rattus norvegicus with 12 samples.

Results

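The genes described here encode the proteins of the cytosolic ribosome. They were taken as the probe sets that the array annotation names by a single symbol of the Rpl, Rps, Rplp or Rpsa series, with the ribosomal S6 kinases left out, and a gene with several probe sets was read from the one with the highest mean signal. The rule found 48 of the 14217 genes named on the array, on 55 probe sets. Of these, 33 belong to the large ribosomal subunit and 15 to the small one. The study measured RNA of male Wistar rats on 12 arrays that carry 31042 probe sets for transcripts. The rats had taken cocaine by nosepoke (0.3 mg/kg per injection, in 40 µl) on 4 days, in daily sessions of 2 h in which each active nosepoke gave an injection, and were killed 2 h after the last session. The 4 groups of 3 arrays were nucleus accumbens under TsA, nucleus accumbens under vehicle, anterior cingulate cortex under TsA and anterior cingulate cortex under vehicle. Each array held cRNA made from 6 µg total RNA of a pool of 2 rats. All rats took cocaine, so no group shows either structure without the drug, and the labels do not say whether the accumbens and cortex pools came from the same rats. The labels write TsA without spelling it out, and its dose and timing are not given in the sources used here. The abbreviation commonly stands for trichostatin A, which blocks histone deacetylases.

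A cytosolic ribosome joins a small subunit, which binds the mRNA and decodes it, with a large subunit, which forms peptide bonds and holds the tunnel through which the new protein leaves. Each subunit contains its proteins in fixed proportions, and the mRNAs for them are among the most abundant in most cells. In vertebrates these mRNAs usually begin with a run of pyrimidines, the TOP element, through which the mTOR pathway controls their translation. In neurons, ribosomes lie in the cell body and in dendrites, where local protein synthesis takes part in lasting changes of synapses.

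The values are signals on a linear scale as deposited by the authors, scaled so that each array has the same trimmed mean. Of the 48 genes, 44 lay above the lower limit on mean signal (17.4), which left out the dimmest 40% of all probe sets. Among them 38 were bright, with mean signals of 1113 to 4603 over the 12 arrays. The dimmest of these 38 lay at percentile 98.1 of all probe sets. A signal depends on the probes as well as on the transcript, so signals of different genes give no order of their levels. The brightest probe sets were those of Rps29 (4603), Rps23 (3682), Rpl26 (3424), Rpl3 (3234) and Rpl27a (3112). The other 6 genes that were tested had mean signals far below 900, and they were Rpl7l1, Rpl39, Rpl26l1, Rps27l, Rps4y2 and Rpl28. The 4 genes under the limit, Rpl30, Rpl39l1, Rpl3l and Rps13, were not tested, and the highest signal of any of them on any array was 17.0. Ribosomal protein genes have many processed pseudogenes of near-identical sequence, and a probe set cannot tell such copies from the gene itself.

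Both dissections carried the markers of their structure. All 9 accumbens markers that were tested were higher in accumbens (median log2 difference 3.31) and all 9 cortex markers were lower there (median -2.44). The 12 arrays were washed in 3 fluidics runs of 4, per the run records. All accumbens TsA arrays went through the third run together with 1 accumbens vehicle array. The other 2 accumbens vehicle arrays shared the second run with 2 cortex TsA arrays, and the remaining 4 cortex arrays made up the first. Only the second run held both structures. The GAPDH control probe sets gave ratios of the probe set at the 3′ end to that at the 5′ end of 1.12 to 1.25 in accumbens and 1.16 to 1.22 in cortex. The ratios of the 3′ probe set to the middle one moved with the structure for GAPDH, with 1.386 to 1.55 in accumbens and 1.29 to 1.388 in cortex, while those of beta-actin were 1.25 to 1.37 in accumbens and 1.31 to 1.404 in cortex. These ratios bear on RNA quality, and their part in the ribosomal difference was not tested. In their ribosomal signals 2 vehicle arrays stood apart from their groups, though accumbens TsA arrays 1 and 3 departed from theirs as well. Over the 38 bright genes, accumbens vehicle array 1 lay a median of 0.17 log2 below its group mean, with 37 of 38 genes below it. Cortex vehicle array 2 lay a median of 0.10 above its group mean, with 32 of 38 genes above it. Accumbens TsA array 1 lay a median of 0.08 above its group mean, with 36 of 38 genes above it. Accumbens TsA array 3 lay a median of 0.07 below that mean, with 3 of 38 genes above it. Accumbens vehicle array 1 also had the highest median signal over all probe sets (33.1) and cortex vehicle array 2 the lowest (26.8), within a range that otherwise ran from 28.5 to 32.0. Of all 12 arrays, accumbens vehicle array 1 had the highest GAPDH ratio of the 3′ to the middle probe set (1.55) and the highest beta-actin ratio of the 3′ to the 5′ probe set (2.38). The summed signal of the 2 blood markers tested was 1232 in accumbens vehicle array 1, against 2972 and 2867 in the other 2 of its group. It was 3062 in cortex vehicle array 2, against 1841 and 2360.0. It was also 2891 in cortex TsA array 2, against 2004.5 and 2095, where the ribosomal genes lay a median of 0.01 from their group mean. The summed signal of mitochondrial ribosomal protein genes was lowest in accumbens vehicle array 1 (16776) and highest in cortex vehicle array 2 (21594). The part of these differences in the ribosomal signals was not tested. For each comparison that uses these arrays, the calls, the median and the number of genes whose groups did not overlap are given also without both. These arrays were picked by the ribosomal signals themselves, a low array in accumbens and a high array in cortex. Leaving them out therefore raises the accumbens-minus-cortex difference of most of these genes by the choice itself, and is no support for it.

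Most ribosomal protein genes gave higher signals in nucleus accumbens than in anterior cingulate cortex. With both treatments averaged, 33 of the 44 genes tested were higher in accumbens, none was lower, and 11 did not pass the test (limma on log2(signal + 16) over all 18625 probe sets kept, Benjamini-Hochberg adjusted p under 0.05). Over all probe sets, 24.4% were called higher and 20.4% lower, 44.8% in all. These calls take no account of the fluidics runs, which largely follow the structures. With the run as a fixed block, 3 of the 44 genes were called (11.2% of all probe sets higher, 11.3% lower). Within the only run that holds both structures 7 were (11.9% of all probe sets higher, 10.8% lower). After each array was centred on its own median, 17 were higher and 1 was lower (16.9% of all probe sets higher, 28.3% lower). The adjusted p-values of single genes below are likewise without the run, and with the run as a block only Rps3a, Rpl7 and Rpl39 passed. The median log2 difference was 0.26 over the ribosomal genes, against 0.04 over all probe sets. The differences were small: among the bright genes they ran from 0.09 to 0.57, and all 38 lay above 0. Among the 792 probe sets with mean signals above 900 that were not among the ribosomal ones, 185 were higher, 248 were lower, and the median was -0.03. In 17 of 44 genes every accumbens array lay above every cortex array, which held for 14.4% of all probe sets, while 12.7% had them all below. Without accumbens vehicle array 1 and cortex vehicle array 2 this held for 35 of 44 genes, against 19.1% of all probe sets above and 2795 of 18625 below. In summed signal the ribosomal genes made up 1.99 to 2.34% of all signal on the accumbens arrays and 1.75 to 1.94% on the cortex arrays. In bulk tissue, a higher share of cells rich in these mRNAs and more of them per cell cannot be told apart.

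**Figure D1:**
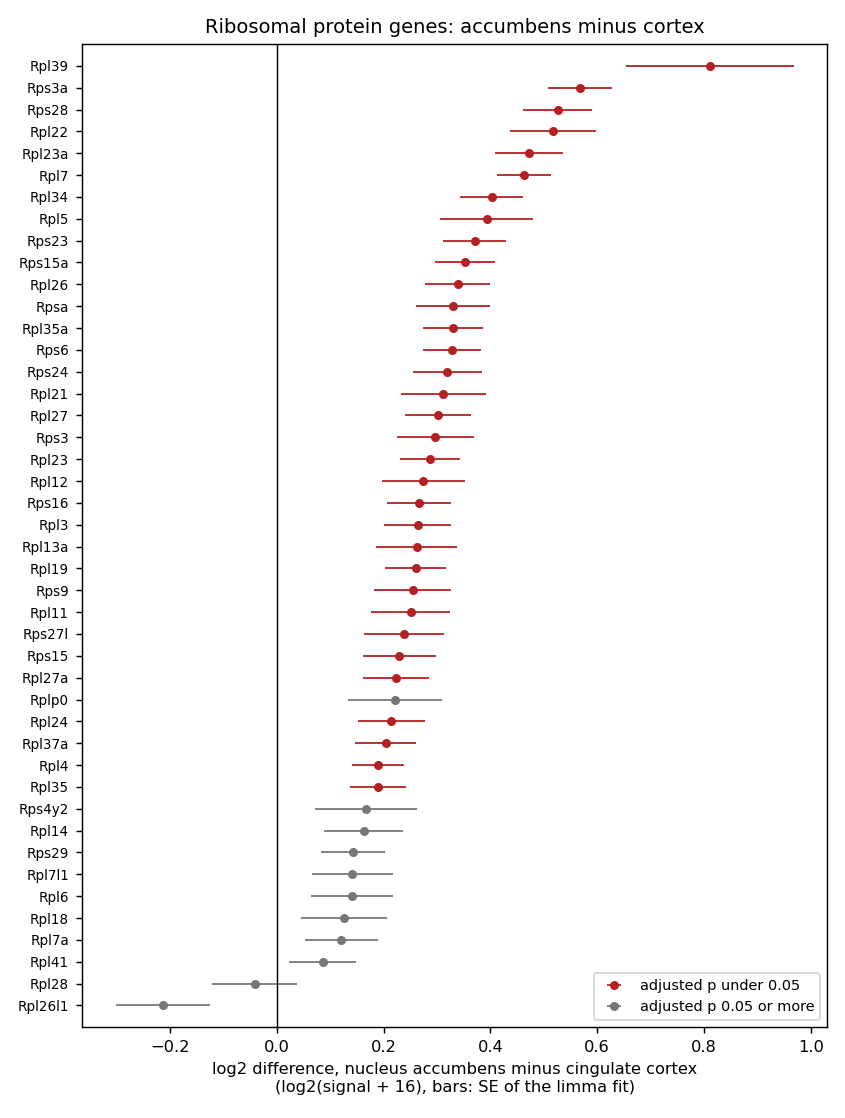
Log2 difference of each of the 44 ribosomal protein genes tested, nucleus accumbens minus anterior cingulate cortex, with TsA and vehicle arrays averaged on the log2(signal + 16) scale, with bars for the standard error of the limma fit and red points for an adjusted p under 0.05. The red points number 33 and all lie right of 0, from 0.19 for Rpl35 and Rpl4 to 0.81 for the dim probe set of Rpl39.

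Start-site sequences were read for the genes whose signals differed most and least between the structures, to set their letters side by side. The RefSeq promoter table (GRCr8) held 43 of the 48 genes, 41 matched by gene ID and 2 by symbol. In a window of 80 bases (60 before the annotated start and 20 after it), 21 of 43 genes held CTTTC, the letters of a short pyrimidine run, on either strand, against 18.9% of all 27457 promoters. With CTTTC on the gene's strand alone, the shares were 46.5% of the ribosomal genes and 10.3% of all promoters. CTTCCG on either strand, the letters of the core site of ETS-family factors, stood in 13 of 43 (30.2%), against 8.07% of all promoters. AAGATGG on either strand, the core letters of the site named for YY1, stood in 5 (11.6% against 2.31%), and TATAAA on either strand, the TATA box, in 4 (9.30% against 4.41%). None of the 4 motifs contains another, and a match is a description of letters and no evidence of binding. The 5 windows below belong to the bright genes with the largest structure differences among those with an entry, at chr2:173827023-173827102 (Rps3a, minus strand), chr7:15311314-15311393 (Rps28, minus), chr5:168117901-168117980 (Rpl22, plus), chr2:221962264-221962343 (Rpl34, minus) and chr14:1995206-1995285 (Rpl5, minus). Capitals mark the pyrimidine run and the ETS letters in either orientation.
Rps3a: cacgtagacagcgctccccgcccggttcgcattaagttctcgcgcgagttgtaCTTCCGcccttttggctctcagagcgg
Rps28: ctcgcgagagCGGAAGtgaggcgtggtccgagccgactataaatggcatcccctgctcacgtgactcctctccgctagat
Rpl22: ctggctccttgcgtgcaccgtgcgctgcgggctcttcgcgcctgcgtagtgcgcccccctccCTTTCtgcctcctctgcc
Rpl34: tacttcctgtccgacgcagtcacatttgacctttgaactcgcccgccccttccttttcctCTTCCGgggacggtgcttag
Rpl5: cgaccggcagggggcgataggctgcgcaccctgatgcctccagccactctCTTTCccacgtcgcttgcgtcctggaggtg
The next 4 windows belong to the bright genes with the smallest differences, at chr7:1563478-1563557 (Rpl41, minus), chr3:30637076-30637155 (Rpl7a, plus), chr1:105325210-105325289 (Rpl18, plus) and chr12:41011671-41011750 (Rpl6, minus).
Rpl41: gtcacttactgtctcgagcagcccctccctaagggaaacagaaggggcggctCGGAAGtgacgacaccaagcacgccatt
Rpl7a: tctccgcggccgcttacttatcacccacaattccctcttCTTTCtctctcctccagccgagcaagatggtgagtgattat
Rpl18: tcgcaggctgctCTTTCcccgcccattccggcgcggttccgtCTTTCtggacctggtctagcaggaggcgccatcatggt
Rpl6: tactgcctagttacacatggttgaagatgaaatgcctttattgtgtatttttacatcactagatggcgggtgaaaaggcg
Both sets held the marked letters, all 5 windows of the first and 3 of the 4 of the second. The ETS letters stood in Rps3a, Rps28 and Rpl34 of the first set and in Rpl41 of the second. CTTTC stood in Rpl22 and Rpl5 of the first set and in Rpl7a and Rpl18 of the second. With 9 windows, whether either motif goes with the size of the difference cannot be decided.

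The small-subunit genes were called higher in accumbens in 12 of 14 cases and lower in none, without the run in the fit. Over all probe sets 24.4% were called higher and 20.4% lower. The median log2 difference of the small-subunit genes was 0.31, and all 14 values lay above 0. Rps3a, a protein on the platform of the small subunit, had the largest difference of any bright ribosomal gene. Its signals were 2734, 2621 and 2580.4 in accumbens TsA and 2549, 2684 and 2616 in accumbens vehicle, against 1954, 1719 and 1865 in cortex TsA and 1909, 1501 and 1707 in cortex vehicle. The 6 accumbens arrays lay close together (2631 ± 67.9, SD, n = 6) and far above all cortex arrays (1776 ± 168, n = 6), a 1.48-fold difference (log2 0.57, SE 0.06, adjusted p = 5.3e-06). Rps28, a small protein near the mRNA exit, had 1781, 1801 and 1681 in accumbens TsA and 1464, 1813 and 1864 in accumbens vehicle, against 1126, 1164 and 1137 in cortex TsA and 1188, 1343 and 1229.5 in cortex vehicle. No cortex array reached the lowest accumbens array, and the difference was 1.44-fold (log2 0.53, SE 0.06, adjusted p = 2.1e-05). With the run as a fixed block Rps28 did not pass (log2 0.38, adjusted p = 0.081).

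Rps23, which lines the decoding centre, averaged 4159 ± 344 in accumbens and 3206 ± 123 in cortex (SD, n = 6 each), a log2 difference of 0.37 without overlap of the structures. Rps15a was higher by 0.35 and Rps24 by 0.32, both also without overlap. Rps6, the ribosomal protein that S6 kinases phosphorylate, had 2318, 2119.5 and 2182 in accumbens TsA and 2058, 2364 and 2193 in accumbens vehicle, against 1758, 1754 and 1726 in cortex TsA and 1918, 1692 and 1673 in cortex vehicle. The lowest accumbens value of Rps6 (2058) lay above the highest cortex value (1918), and the log2 difference was 0.33 (SE 0.05, adjusted p = 2.6e-04). Rpsa, also known as the laminin receptor, was higher by 0.33 on the probe set chosen by the rule and by 0.47 and 0.46 on its other 2 probe sets, which may read near-identical copies. Rps3, at the mRNA entry, was higher by 0.30, Rps16 by 0.27, Rps9 by 0.25 and Rps15 by 0.23, with accumbens and cortex arrays that overlapped in each. Rps29, with the brightest probe set, averaged 4838 ± 444 in accumbens and 4368 ± 157 in cortex and did not pass (log2 0.14, SE 0.06, adjusted p = 0.067).

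The large-subunit genes were called higher in accumbens in 21 of 30 cases and lower in none, without the run in the fit. Over all probe sets 24.4% were called higher and 20.4% lower. The median of the large-subunit genes was 0.26, and 28 of 30 values lay above 0. Rpl22, an RNA-binding protein on the outer face of the subunit, had 1366, 1319.9 and 1269 in accumbens TsA and 1058, 1399 and 1476 in accumbens vehicle, against 846, 882 and 893 in cortex TsA and 859, 1043 and 942 in cortex vehicle. Its structures did not overlap, but accumbens vehicle array 1 (1058) lay close to the highest cortex array (1043). The difference was 1.43-fold (log2 0.52, SE 0.08, adjusted p = 1.5e-04). Rpl7 had 2245, 2126 and 1996 in accumbens TsA and 2006, 2138 and 2081 in accumbens vehicle, against 1546, 1439.8 and 1561 in cortex TsA and 1600.2, 1521 and 1443 in cortex vehicle. Of the 12 genes with the largest differences it had the smallest standard error, with 2099 ± 93.0 in accumbens and 1518 ± 65.0 in cortex (SD, n = 6 each), and a log2 difference of 0.46 (SE 0.05, adjusted p = 7.4e-06).

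At the exit of the peptide tunnel lie Rpl23a and Rpl26. Rpl23a averaged 2317 ± 206 in accumbens and 1662 ± 85.6 in cortex (log2 0.47, adjusted p = 4.9e-05), and Rpl26 averaged 3831 ± 356 in accumbens and 3016 ± 74.7 in cortex (log2 0.34, adjusted p = 5.3e-04). Neither gene's structures overlapped. Rpl5 and Rpl11 carry a small ribosomal RNA into the large subunit and can bind the p53 regulator Mdm2. Rpl5 had 2993, 2171 and 2609.8 in accumbens TsA and 2306, 2942 and 2557 in accumbens vehicle, against 2066, 1943 and 1983 in cortex TsA and 2163, 1692 and 1948 in cortex vehicle. The lowest accumbens array of Rpl5 (2171) was close to the highest cortex array (2163), and the log2 difference was 0.39 (SE 0.09, adjusted p = 0.0024). Rpl11 was higher by 0.25 (adjusted p = 0.014), with arrays of the structures that overlapped. Rpl34 was higher by 0.40, Rpl35a by 0.33 and Rpl23 by 0.29, each without overlap.

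Rpl21 was higher by 0.31 (adjusted p = 0.0059), and its 12 arrays were ordered differently from those of most genes, with accumbens TsA array 1 the lowest of all accumbens arrays. Rpl3, which reaches the peptidyl transferase centre, was higher by 0.26, Rpl19 by 0.26 and Rpl13a, a protein that in human cells also takes part in silencing inflammatory mRNAs, by 0.26. The other large-subunit genes called higher were Rpl27 (0.30), Rpl12 (0.27), Rpl27a (0.22), Rpl24 (0.21), Rpl37a (0.20), Rpl4 (0.19) and Rpl35 (0.19), and of these only Rpl4 had structures that did not overlap. The 8 large-subunit genes with the smallest differences included 5 bright ones. Rpl41, the smallest ribosomal protein, averaged 2105 ± 186 in accumbens and 1979 ± 132 in cortex (log2 0.09, SE 0.06, adjusted p = 0.29). Rpl7a had a log2 difference of 0.12, Rpl18 of 0.13, Rpl6 of 0.14 and Rpl14 of 0.16, and none of these passed the test (adjusted p from 0.090 to 0.22). Rplp0, the base of the stalk that recruits elongation factors, had 1847, 1799.7 and 1646 in accumbens TsA and 1302, 1854 and 1853 in accumbens vehicle, against 1320.0, 1454 and 1309 in cortex TsA and 1431, 1739 and 1546 in cortex vehicle. Accumbens vehicle array 1 was the lowest of all 12, and the difference did not pass (log2 0.22, SE 0.09, adjusted p = 0.057). Without that array and cortex vehicle array 2, Rplp0 was called higher (log2 0.34, SE 0.06, adjusted p = 4.4e-04). Of the 38 bright genes, Rplp0 lay farthest below its group mean in accumbens vehicle array 1 (log2 -0.34). The call without that array therefore follows from the choice of arrays and is no support for a difference.

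The paralogues and dim probe sets gave less even results. Rpl39, which narrows the exit tunnel, was read by a dim probe set with 70.3, 63.9 and 64.1 in accumbens TsA and 86.6, 85.8 and 72.6 in accumbens vehicle, against 58.8, 42.7 and 30.2 in cortex TsA and 16.7, 23.9 and 50.2 in cortex vehicle. The structures did not overlap, and the fitted difference was the largest of all ribosomal genes (log2 0.81, SE 0.16, adjusted p = 8.9e-04). Rps27l, a paralogue of Rps27 that p53 induces in human cells, was near the lower limit, with a mean of 24.7 in accumbens and 18.4 in cortex, and was called higher (log2 0.24, adjusted p = 0.019). Rpl26l1, a paralogue of Rpl26, was the gene with the lowest difference, with 29.97, 34.6 and 27.1 in accumbens TsA and 23.9, 27.9 and 35.7 in accumbens vehicle, against 43.1, 40.7 and 33.3 in cortex TsA and 30.6, 38.9 and 36.1 in cortex vehicle. It did not pass the test (log2 -0.21, adjusted p = 0.066). Rpl7l1, a paralogue of Rpl7, had a difference of 0.14 on its chosen probe set and 0.04 on the other, Rps4y2 had 0.17 and Rpl28 had -0.04, none called. The second probe sets of Rpl3 (0.12), Rps24 (0.19) and Rpl7 (0.26) were dim, and none of them passed although the chosen probe sets did.

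How many ribosomal genes were called depended on how the fluidics runs and the array scale were treated. With the run as a fixed block, the 3 genes called higher were Rps3a (log2 0.65, adjusted p = 0.0077), Rpl7 (0.49, adjusted p = 0.017) and Rpl39 (1.30, adjusted p = 0.018), and the median over the 44 genes was 0.18. Within the second run, where 2 accumbens vehicle arrays meet 2 cortex TsA arrays, 7 were called higher, namely Rps3a, Rpl39, Rpl7, Rps28, Rps15a, Rps23 and Rpl23, against 11.9% of all probe sets called higher and 10.8% lower, and the median was 0.24. Treatment and structure differ together in that run. With the run as a random block the count was 33 (23.4% of all probe sets higher, 19.7% lower). Centring each array on its own median moved the median of all probe sets to -0.06, left 17 ribosomal genes higher and made 1, Rpl26l1, lower (log2 -0.31, adjusted p = 0.015), with a median of 0.16; Rpl41 then lay at -0.01, not called. Of all probe sets called, 54.5% were higher in accumbens as scaled by the authors and 37.5% after that centring. Without accumbens vehicle array 1 and cortex vehicle array 2, 39 genes were called higher (24.1% of all probe sets higher, 19.5% lower) and the median was 0.33. That choice of arrays was made on these same signals and raises the difference by itself. Rps3a, Rpl7 and Rpl39 were called higher under each of the 27 alternatives.

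**Figure D2:**
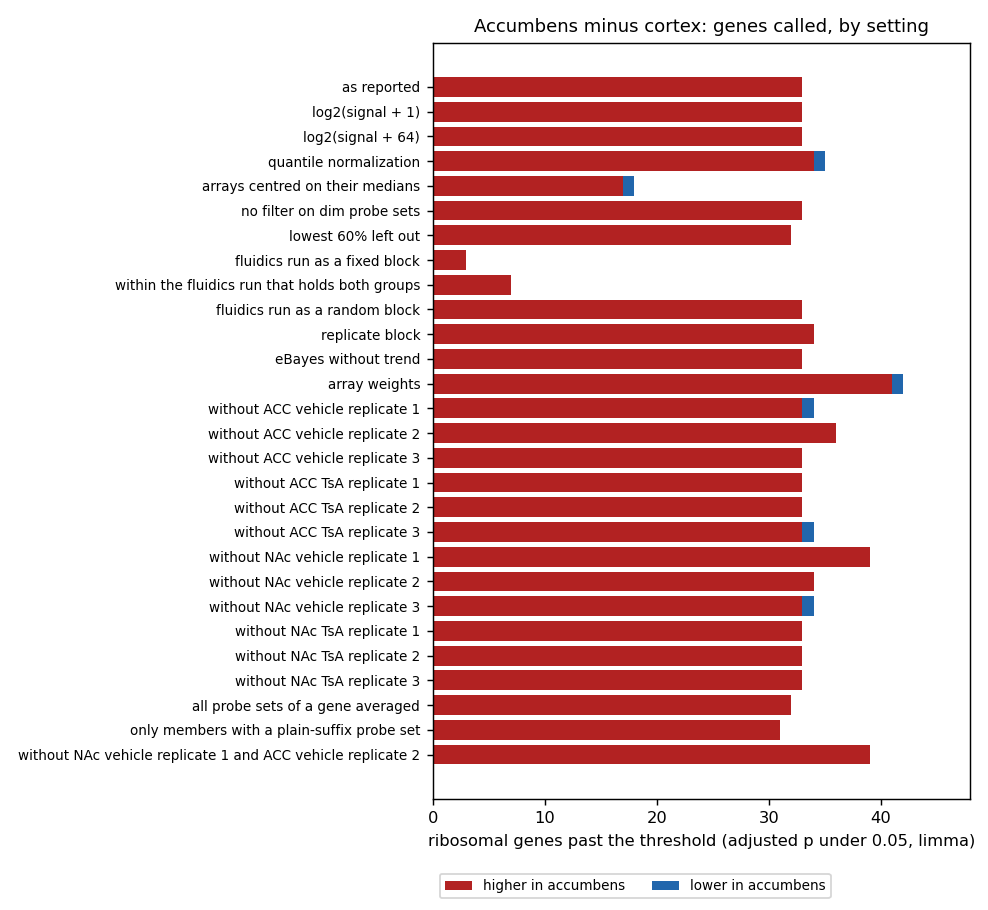
Number of ribosomal protein genes past the threshold (adjusted p under 0.05) for accumbens minus cortex under each setting, with red for higher in accumbens and blue for lower. Most bars end between 31 and 39, while the bars for centred arrays (18), the fluidics run as a fixed block (3) and the run that holds both structures (7) are shorter. The bar for array weights (42) is longer, in a fit whose weights did not converge.

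Other lists of translation genes held calls in both directions. Such calls were common over all probe sets as well, with 24.4% called higher and 20.4% lower. Among 49 initiation factor genes 7 were higher and 6 lower in accumbens, with a median of -0.03. The highest was Eif3m (log2 0.72), a subunit of the initiation factor that holds the small subunit, and the lowest Eif4g3 (-0.34), a scaffold of cap binding. Of 12 elongation and termination factor genes, 3 were higher (Eef2k, Eef1d and Eef1a1) and 2 lower (Eef1a2 and Eif5a). Eef1a1, the form of the factor in most cells, was higher by 0.19, while Eef1a2, the form of adult neurons and muscle, was lower (log2 -0.35). Of 14 other mRNAs with a TOP element, 4 were higher and 1 lower (median 0.11), with Naca highest (0.40) and Vim lowest (-0.89). The lists overlap, and Eef1a1, Eef1b2, Eef1d, Eef1g and Eef2 stand both in this list and among the elongation factors. Among 73 mitochondrial ribosomal protein genes 9 were higher and 6 lower, with a median of 0.01.

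Of the 34 genes of ribosome assembly, 7 were higher and 2 lower (median 0.05), against 24.4% and 20.4% of all probe sets. The highest were Fbl (0.71), Nop58 (0.50) and Ddx21 (0.44), which act on ribosomal RNA in the nucleolus, and Nhp2 was called lower (-0.39). Of 21 genes of mTOR and S6 kinase signalling, 4 were higher and 2 lower (median 0.00). Those called higher included the transcription factors Myc (0.72) and Mycn (0.50), which raise ribosome production in many cells, and Deptor (0.54), an inhibitor of mTOR, and those called lower included Akt1s1 (-0.23).

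Markers of cell types moved with the structure as well. All 11 oligodendrocyte markers tested were higher in accumbens (median 1.73), with a summed signal of 16472 to 20552 there and 6871 to 8442 in cortex. Of 10 general neuron markers, 7 were lower in accumbens and none higher (median -0.49), and their summed signal was 10821 to 12332 in accumbens and 15199 to 16602 in cortex. Of 9 astrocyte markers, 1 was higher and 3 were lower, and none of the 8 microglia, 7 endothelial and 2 blood markers tested passed. Over all probe sets 24.4% were called higher and 20.4% lower. The part of these cell types in the ribosomal difference was not tested.

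Over all 12 arrays, the median accumbens-cortex difference was larger within the TsA arrays than within the vehicle arrays, but this gap was not past the threshold for any gene. Within TsA arrays 32 of 44 ribosomal genes were higher in accumbens and none lower, against 15.9% of all probe sets called higher and 12.3% lower (28.3% in all), and the median was 0.33. Within vehicle arrays 16 were higher and none lower, against 18.0% of all probe sets called higher and 16.5% lower (34.5% in all), and the median was 0.19. All arrays of the structures were apart in 39 genes under TsA and in 18 under vehicle, always with accumbens above cortex. Over all probe sets accumbens lay wholly above in 28.0% and wholly below in 21.2% under TsA, and wholly above in 20.4% and wholly below in 20.1% under vehicle. Both treatments called 14 genes, TsA alone 18, vehicle alone 2 (Rpl19 and Rpl39), and 10 were called in neither. The differences under TsA and under vehicle, which share no array, correlated with r = 0.67 over the 44 genes and 0.71 over the 38 bright ones.

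The vehicle count depended on 2 arrays, which were picked by their ribosomal signals, so that leaving them out widens the difference by the choice itself. Without accumbens vehicle array 1 and cortex vehicle array 2, 36 genes were called higher within TsA arrays (18.3% of all probe sets higher, 14.3% lower) and 28 within vehicle arrays (14.1% higher, 12.1% lower), with a median of 0.33 in each. The vehicle arrays that were left had the structures wholly apart in 40 genes, always with accumbens above, against 31.2% of all probe sets above and 26.2% below. Without accumbens vehicle array 1 alone, 25 genes were called within vehicle arrays (2972 of 18625 probe sets higher, 13.6% lower). The TsA count was 19 without accumbens TsA array 1 (12.5% higher, 10.1% lower) and 20 without cortex TsA array 3 (11.9% higher, 9.69% lower). With the run as a fixed block, 2 genes (Rpl7 and Rps3a) were called within TsA arrays (6.52% of all probe sets higher, 7.62% lower) and 3 (Rpl39, Rpl7 and Rps3a) within vehicle arrays (7.15% higher, 7.73% lower).

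**Figure D3:**
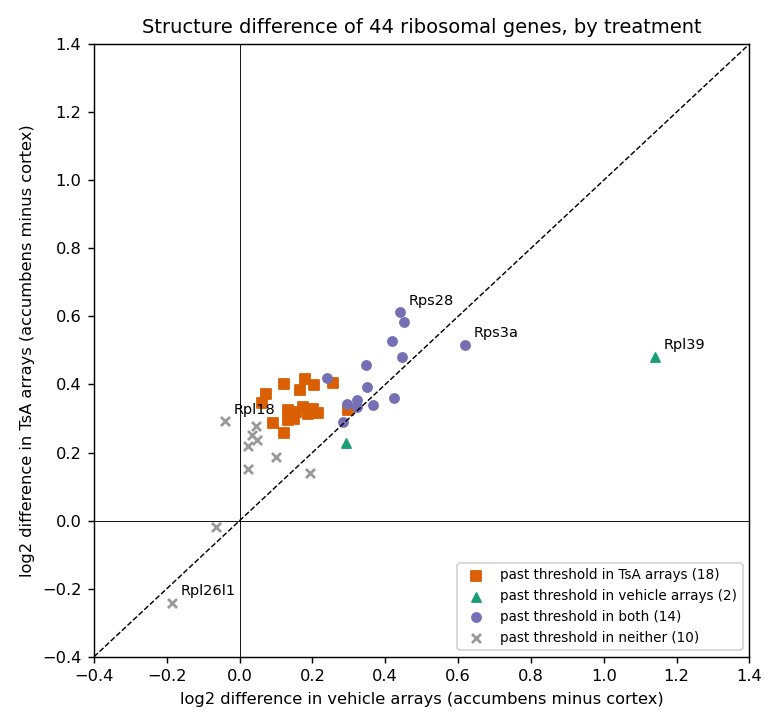
Log2 difference of each of 44 ribosomal protein genes between accumbens and cortex, within TsA arrays on the y axis and within vehicle arrays on the x axis, with marker shape and colour for the arrays in which the gene passed an adjusted p under 0.05 and a dashed line where the differences are equal. There are 37 genes above the dashed line and 7 below it, with Rpl39 farthest to the right. Of all 18625 probe sets, which are not drawn, 10341 had the larger value within TsA arrays.

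No ribosomal protein gene passed the test for TsA against vehicle in either structure, except under array weights, where 7 were called lower in cortex in a fit whose weights did not converge. That fit called 11.2% of all probe sets lower and 13.1% higher in cortex. In cortex limma called none of the 18625 probe sets (0.0%; smallest adjusted p 0.75), 851 of them had an unadjusted p under 0.05, and among the 44 ribosomal genes 1 did (Rpl7l1). Without a passing test, 37 of the 44 values lay below 0, with a median log2 of -0.10, against -0.02 over all probe sets. Of all 18625 probe sets 10262 lay below 0. Of the 792 other probe sets with mean signals above 900, 476 did (median -0.02). In 13 genes all cortex TsA arrays lay below all cortex vehicle arrays, which held for 8.47% of all probe sets, and in none did they all lie above (3.89% of all probe sets). Rpl7l1 had 248, 255 and 246 in cortex TsA, against 292, 306 and 299.9 in cortex vehicle (log2 -0.25, SE 0.11). Rpl14 had 977, 1023 and 972 in cortex TsA, against 1028, 1342 and 1100.3 in cortex vehicle (log2 -0.21, SE 0.10). Cortex vehicle array 2 was the highest cortex array for Rpl14 and also for Rpl13a, and Rpl13a had 1899, 1854 and 1834 in cortex TsA, against 1792, 2487 and 2154 in cortex vehicle (log2 -0.19, SE 0.11). Rplp0 (-0.20), Rps3 (-0.19) and Rpl18 (-0.19) were the other low genes. The highest were Rpl39 (0.41), Rps3a (0.12), Rpl26l1 (0.10), Rpl5 (0.05), Rpl26 (0.01) and Rpl23a (0.01). Without cortex vehicle array 2 the median was -0.05, and also without both arrays that stood apart, when none was called and 14 genes had all TsA arrays below the vehicle arrays left (11.4% of all probe sets, with 6.05% above). Mitochondrial ribosomal protein genes lay below 0 in 62 of 73 cases under TsA in cortex (median -0.15), none called.

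In accumbens limma again called none of the 18625 probe sets (0.0%; smallest adjusted p above 0.99), 408 had an unadjusted p under 0.05, and none of the 44 ribosomal genes did. Over all probe sets the median was 0.01, with 10082 of 18625 above 0. Over the 792 other probe sets with mean signals above 900 it was 0.03, with 556 above 0. The ribosomal median was likewise 0.03, with 33 of 44 values above 0. The highest were Rpl18 (0.14), Rps27l (0.13), Rpl37a (0.12), Rpl23a (0.12), Rpl7a (0.10) and Rplp0 (0.10), and the lowest Rpl39 (-0.25), Rps4y2 (-0.11), Rpl28 (-0.11), Rpl23 (-0.08), Rpl19 (-0.06) and Rps15a (-0.05). No gene had all accumbens TsA arrays above all accumbens vehicle arrays (3.01% of all probe sets did), and 1, Rpl39, had them all below (2.46%). The direction of the median depended on 1 array: without accumbens vehicle array 1 it was -0.05, and also without both arrays, when none was called and 6 genes had all accumbens TsA arrays below the vehicle arrays left (7.36% of all probe sets, with none of the genes and 6.8% of all probe sets above). It was -0.06 with the run as a fixed block and within the third run, which holds accumbens vehicle array 3 and the accumbens TsA arrays.

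The difference between the TsA effects, accumbens minus cortex, is the same quantity as the gap between the structure differences under TsA and vehicle. It had a median of 0.13 and lay above 0 in 37 of 44 genes. Over all probe sets the median was 0.03, with 10341 of 18625 above 0. Over the 792 other probe sets with mean signals above 900 it was 0.06, with 530 above 0. limma called none of the ribosomal genes nor any of all probe sets (smallest adjusted p 0.84). An unadjusted p under 0.05 was found for 662 of all probe sets and 1 ribosomal gene, Rpl37a. The extremes were Rpl18 (0.33) and Rpl39 (-0.66). The median was 0.04 without accumbens vehicle array 1 and 0.01 without that array and cortex vehicle array 2, with none called. Averaged over both structures, the TsA effect had a median of -0.03 and called none (smallest adjusted p 0.22 over all probe sets, of which 515 had an unadjusted p under 0.05, with 0 of the ribosomal genes among them). Without both arrays that median was -0.05, with none called.

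**Figure D4:**
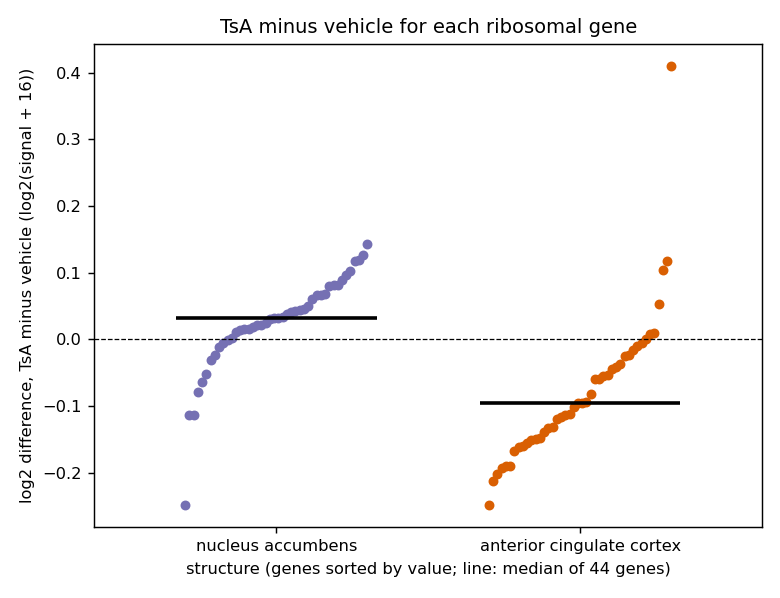
Log2 difference of TsA minus vehicle on the log2(signal + 16) scale for each of 44 ribosomal protein genes, sorted by value within nucleus accumbens (left) and anterior cingulate cortex (right), with a black line at the median. The medians are 0.03 in accumbens and -0.10 in cortex, and no point passed the test.

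From array to array within a group, the bright ribosomal genes moved largely together. After the group means were removed, the median correlation over the 703 pairs of the 38 genes was 0.62 over 12 arrays, with pairs from -0.77 to 0.98 and 70 pairs below 0. All pairs share the same arrays and their scaling, and without the 2 arrays that stood apart the median was 0.47 over 10 arrays. Rps3 and Rpl34 followed the others most closely (median correlation 0.84 each). Rpl21 (-0.17) and Rps3a (-0.16) did not follow them. In Rps3a the low accumbens vehicle array 1 (2549) differed little from the rest of its group, and cortex vehicle array 2, high for most genes, gave the lowest signal (1501). Rpl5, with 1692 in that array, was likewise lowest there. The median signal over the 38 genes was 2393, 2228 and 2209.9 in accumbens TsA and 2032, 2338 and 2398 in accumbens vehicle, against 1816, 1804 and 1791 in cortex TsA and 1876, 2066 and 1873 in cortex vehicle. The 3 cortex TsA arrays were the 3 lowest, and accumbens vehicle array 1 lay below cortex vehicle array 2.

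**Figure D5:**
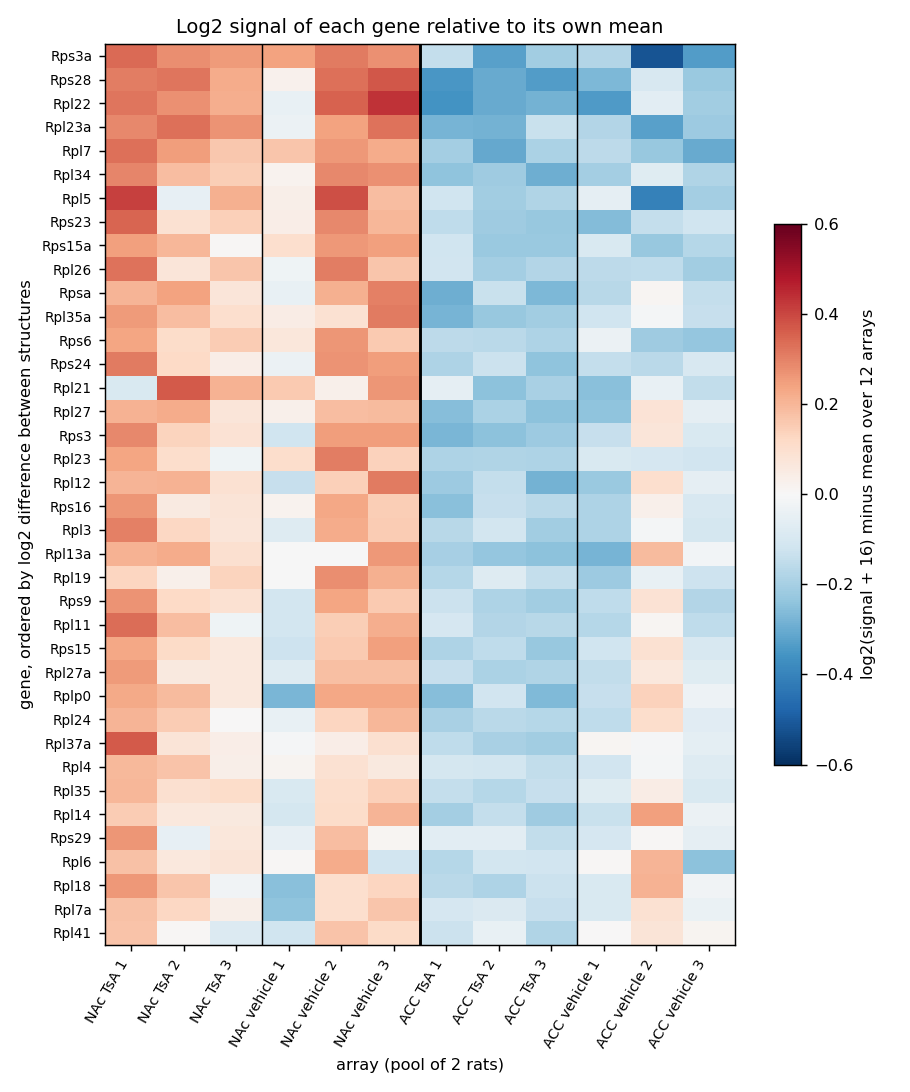
Log2 signal of the 38 bright ribosomal protein genes (rows, ordered by the structure difference) in each of the 12 arrays (columns), as the deviation from the gene's mean over all arrays on the log2(signal + 16) scale, with red above and blue below the mean. The accumbens columns are mostly red and the cortex columns mostly blue, accumbens vehicle array 1 is pale (median -0.03, against 0.22 and 0.20 in arrays 2 and 3) and cortex vehicle array 2 is pale or red for most genes but dark blue for Rps3a and Rpl5.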

How the data were processed

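The table deposited by the authors holds 1 signal intensity per probe set and array. GCOS 1.4 and MAS5 are named in the submitters' processing notes; the scaling target, detection calls and image analysis are not given in the sources used here. The 2% trimmed mean is the same on every array, so the deposited signal intensities are relative to each array's overall level. Run records per array, also deposited, gave the fluidics runs.

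Signals were analysed as log2(signal + 16). The 57 control probe sets and the lowest 40% by mean signal were left out, which kept 18625 of 31042. Of those 31042, 20826 carried 1 gene symbol, 436 several and 9780 none, in GEO's platform annotation; 46 of the 48 ribosomal gene IDs were found in RefSeq. limma 3.58.1 (R 4.3.3) fitted 4 group means over all 12 arrays (8 residual degrees of freedom) with a trended prior, and p-values were adjusted by Benjamini-Hochberg over all probe sets kept. A fold change on this scale understates the change of dim probe sets. The number of arrays limits the precision, and p-values measure the spread between these pools only. The steps were tested on simulated data in which 200 of 18625 probe sets changed. For TsA they found 0.0% of changes of log2 0.3 in either structure. Of changes of 0.5 they found 14.0% in cortex and 26.5% in accumbens, and of changes of 1.0 they found 88.0% and 86.5%. A lack of TsA calls thus does not show that changes of log2 0.3 or less were absent.

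The ribosomal genes, the other gene lists and the tests were chosen with earlier results of these data known. Genes named in full were, per comparison, the 12 highest and 8 lowest (6 and 6 for TsA), the 5 brightest, the paralogues, the stalk protein and Rpsa, Rps6 and Rpl13a; from other lists, up to 3 at each end. The main fit did not pair arrays by the replicate numbers in the labels. Deviations from group means correlated between -0.11 and 0.66 for arrays of the same number. For arrays of different numbers they correlated between -0.67 and 0.60. With 3 arrays per group these values cannot decide whether the numbers pair the arrays. The alternatives were 2 other pseudocounts, other filters, quantile normalization, centred arrays, and the run and the replicate number as blocks. They also included array weights, leaving out each array, and other probe-set choices. Leaving out 2 arrays together was added after the data were seen, and these arrays were picked by their ribosomal signals. The genes Rplp1, Rplp2, Rps27a and Rpl10 were not analysed here.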

Additional observations from a re-analysis of the deposited data

How the results depend on the processing

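The median ribosomal structure difference, averaged over treatments, stayed above 0 under all 27 alternatives, while the number of genes called moved. Averaged over treatments, the 33 calls became 18 with centred arrays (median 0.16), 3 with the fluidics run as a fixed block and 7 within the run that holds both structures; leaving out 1 array gave 33 to 39 calls. Within TsA arrays, the 32 calls became 13 with centred arrays (median 0.25) and 2 with the run as a block (median 0.21), and 19 to 36 when 1 array was left out. Within vehicle arrays, the 16 calls became 6 with centred arrays (median 0.0774), 3 with the run as a block, 34 with array weights (33 higher and 1 lower) and 28 without accumbens vehicle array 1 and cortex vehicle array 2 (median 0.33); leaving out 1 array gave 12 to 25 calls and medians of 0.13 to 0.28. The TsA effects stayed at 0 calls except with array weights, where 7 genes were lower in cortex (Rpl12, Rpl13a, Rpl14, Rpl27, Rpl28, Rpl7l1 and Rplp0) and 1 difference between structures passed (Rpl13a); these weights did not converge. The accumbens TsA median was -0.0592 with the run as a fixed block and within the third run. The median difference of TsA effects was 0.0439 with the run as a block, 0.0107 without both arrays and 0.04 to 0.18 when 1 array was left out. With the replicate block, 34 ribosomal genes were called for the averaged structure difference, 31 within TsA arrays and 17 within vehicle arrays, and no ribosomal call for TsA changed. Shares of all probe sets called are not given for the replicate block or for array weights between the structures. They are also not given for centred arrays within 1 treatment or for most fits without 1 array. Those counts therefore have no background to be read against. Over all probe sets, the 4551 higher and 3798 lower calls became 2088 and 2111 with the run as a block. The cause of these moves was not tested, except that within 1 run fewer arrays are compared. Runs overlap with groups, so that run and structure can be compared only where both meet; the probe set of Rps27l lies close to the lower limit on signal.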
